A study of Mus musculus with 2 samples.

Results

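The junctions described here are splice junctions that no ENSEMBL transcript held, although both of their ends lay on known exon ends of 1 gene. A junction is the pair of genome positions that a read joins when an intron has been removed. They were taken from the deposited junction list on the mouse genome build mm9 by 3 criteria: the list marked them as unannotated, a significance field was at most 0.01, and an ENSEMBL release 65 exon of the same gene and strand ended at the donor while another started at the acceptor. The list held 1024689 junctions, of which 25424 unannotated and 133829 annotated ones met the significance limit. Of the unannotated ones, 2965 joined known exon ends, which is 11.7% of them, and 2 more in excluded regions of chromosomes 7 and 11 are not analysed here. The 2965 junctions lay in 2194 genes. Reads and the significance field chose them, so their reads, shares and replicate agreement are given as descriptions with no test.

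The RNA came from embryonic liver at day 14 of C57BL/6J mice, with male and female littermates pooled. The study is 1 group of 2 stranded paired-end libraries of ribosome-depleted polyadenylated RNA over 200 nucleotides long, labelled as biological replicates 1 and 2. No treatment, mutation or second condition was part of it, so the comparisons are between kinds of junction within the same libraries. The 2 share a donor entry in the labels, which name no separate litters, so their spread may be technical.

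During splicing the spliceosome joins the donor site at the end of an exon to the acceptor site at the start of the next. When an exon's sites are not used, the neighbouring exons are joined directly and the exon is skipped, which is the most common kind of alternative splicing in mammals. A skipped coding exon whose length is a multiple of 3 removes whole codons and keeps the reading frame, while any other length shifts it. A shifted frame usually meets an early stop codon, and an early stop well before the last exon junction marks an mRNA for nonsense-mediated decay. The embryonic liver is a blood-forming organ at this stage, and both of its main cell types were seen in the libraries: the red cell genes Alas2, Slc4a1, Klf1 and Car2 lay between 167 and 1360 TPM (a length-scaled abundance per transcript) and the hepatocyte genes Alb, Afp, Apoa2, Trf and Ttr between 737 and 10440 TPM.

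The list held 80752918 junction reads for replicate 1 and 114217023 for replicate 2. The selected junctions carried 58410 of them in replicate 1 and 97031 in replicate 2, which is 0.0723% and 0.0850%. Their median was 27 reads over both replicates and their range was 11 to 2080, against a median of 218 reads for annotated junctions at the same limit. An unexplained flag named C in the list was 1 for 99.7% of the selected junctions and for 99.7% of the annotated ones, against 70.7% of all unannotated junctions at the limit. The libraries stood apart in skeletal muscle genes: annotated junctions of Myh3, a muscle myosin, had 3023 reads in replicate 1 and 112 in replicate 2. In bulk RNA, fewer cells of a type and less RNA per cell cannot be told apart.

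Most of the junctions skipped 1 exon. Of the 2965, 2814 spanned at least 1 whole annotated exon of their gene and 151 spanned none, so that these are new pairs of known ends and not exon skips. For 2711 both ends belonged to the same known transcript, and of these 2408 left out 1 exon of it, 242 left out 2, 40 left out 3 and 21 left out 4 or more. For the other 254, the ends were known from different transcripts of the gene. The number left out is the lowest over the transcripts that hold both ends, so a junction can span further exons of other transcripts. Among those named below, the junction of Ip6k2 spanned 4 separate exon blocks of its gene, and those of Tmod1 and Lmo2 spanned 3 each. The longest skips with at least 20 reads left out 10 exons of Aass, an enzyme of lysine breakdown, 8 exons of Rbbp4, a histone-binding protein, and 7 exons of Gon4l. Aass had 19 and 39 reads over its junction in replicates 1 and 2, Rbbp4 had 5 and 16, and Gon4l had 76 and 92.

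The exons below are examples whose length keeps or shifts the reading frame, and they return in the results. They were read from the GENCODE M21 transcripts on build GRCm38, 5′ to 3′, with the skipped exon in capitals and 30 bases of the exon on each side in lower case. The selected junction joins the stretches in lower case. Exons in the first set are a multiple of 3 bases long. They are Snx22 (chr9:66067780-66067812, minus strand, 33 bases), Ptprk (chr10:28570174-28570191, plus strand, 18 bases) and Erc1 (chr6:119734081-119734092, minus strand, 12 bases). The set also holds Cfi (chr3:129862130-129862150, plus strand, 21 bases), Mef2d (chr3:88158034-88158171, plus strand, 138 bases) and Ip6k2 (chr9:108798110-108798178, plus strand, 69 bases).
Snx22: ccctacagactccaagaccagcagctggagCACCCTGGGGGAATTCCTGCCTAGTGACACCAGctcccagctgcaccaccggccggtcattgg
Ptprk: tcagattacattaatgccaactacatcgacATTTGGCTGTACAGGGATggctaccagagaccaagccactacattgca
Erc1: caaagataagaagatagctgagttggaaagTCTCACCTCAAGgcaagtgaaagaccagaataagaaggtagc
Cfi: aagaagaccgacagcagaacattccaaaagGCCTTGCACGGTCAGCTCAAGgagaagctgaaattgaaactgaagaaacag
Mef2d: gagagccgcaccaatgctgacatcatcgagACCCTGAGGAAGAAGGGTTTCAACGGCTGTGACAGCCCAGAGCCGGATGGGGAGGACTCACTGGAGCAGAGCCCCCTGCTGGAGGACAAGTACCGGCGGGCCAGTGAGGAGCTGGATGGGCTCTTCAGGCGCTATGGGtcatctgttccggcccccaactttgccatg
Ip6k2: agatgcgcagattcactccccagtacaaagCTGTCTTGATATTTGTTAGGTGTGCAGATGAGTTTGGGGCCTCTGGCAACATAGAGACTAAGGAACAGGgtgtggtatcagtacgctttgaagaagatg

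Exons in the second set are coding but not a multiple of 3 bases long. They are Atpif1 (chr4:132533296-132533387, minus strand, 92 bases), Ptbp2 (chr3:119724612-119724645, minus strand, 34 bases) and Tmod1 (chr4:46078314-46078470, plus strand, 157 bases). The others are Prtn3 (chr10:79880428-79880593, plus strand, 166 bases) and Clk3 (chr9:57758627-57758723, minus strand, 97 bases).
Atpif1: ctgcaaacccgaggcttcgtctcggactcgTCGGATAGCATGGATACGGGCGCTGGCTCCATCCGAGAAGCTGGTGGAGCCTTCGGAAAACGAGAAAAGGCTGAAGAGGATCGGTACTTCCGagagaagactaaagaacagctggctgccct
Ptbp2: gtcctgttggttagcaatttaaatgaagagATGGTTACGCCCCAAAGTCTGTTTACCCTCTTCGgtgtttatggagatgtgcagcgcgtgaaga
Tmod1: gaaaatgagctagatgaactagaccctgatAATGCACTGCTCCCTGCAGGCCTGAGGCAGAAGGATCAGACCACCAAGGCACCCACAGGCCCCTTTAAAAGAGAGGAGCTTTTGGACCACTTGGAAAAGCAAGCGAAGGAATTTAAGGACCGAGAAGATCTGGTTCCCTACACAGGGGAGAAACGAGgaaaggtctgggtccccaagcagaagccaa
Prtn3: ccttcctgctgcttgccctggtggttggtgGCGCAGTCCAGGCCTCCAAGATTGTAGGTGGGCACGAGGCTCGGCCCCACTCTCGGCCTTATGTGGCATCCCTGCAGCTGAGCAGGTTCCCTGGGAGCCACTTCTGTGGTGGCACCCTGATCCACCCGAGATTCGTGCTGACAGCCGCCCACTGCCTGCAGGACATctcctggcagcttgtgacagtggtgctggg
Clk3: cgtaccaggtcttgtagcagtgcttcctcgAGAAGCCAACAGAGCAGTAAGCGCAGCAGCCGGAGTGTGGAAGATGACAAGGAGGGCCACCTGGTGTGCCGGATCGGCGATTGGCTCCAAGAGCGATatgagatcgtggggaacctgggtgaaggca

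The last example is a noncoding exon of Gas5, a host gene of small nucleolar RNAs, at GRCm38 chr1:161036208-161036244 on the plus strand (37 bases).
Gas5: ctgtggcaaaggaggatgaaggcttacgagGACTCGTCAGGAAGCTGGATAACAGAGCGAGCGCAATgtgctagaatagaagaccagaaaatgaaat

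To compare genes of different levels, each junction was given a share: its reads divided by its reads plus the mean of the annotated junction reads at its donor and at its acceptor, in percent. The median share was 4.59%, at 4.44% in replicate 1 and 4.55% in replicate 2, and the quartiles were 1.71% and 12.8%. A share of at least 10% was reached by 896 junctions, which is 30.2%, and 778 of these reached it in each replicate alone. A share of at least 50% was reached by 199 junctions, of which 168 did so in each replicate. At the other end, 448 junctions had a share under 1%. No junction with under 11 reads was selected, so a small share could be seen only where annotated reads were many. In genes whose median annotated junction had 1000 reads or more the median share was 1.24%, against 33.8% in genes with 10 to 100 reads. Against its gene's median annotated junction, the median selected junction had 5.48% as many reads.

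**Figure D1:**
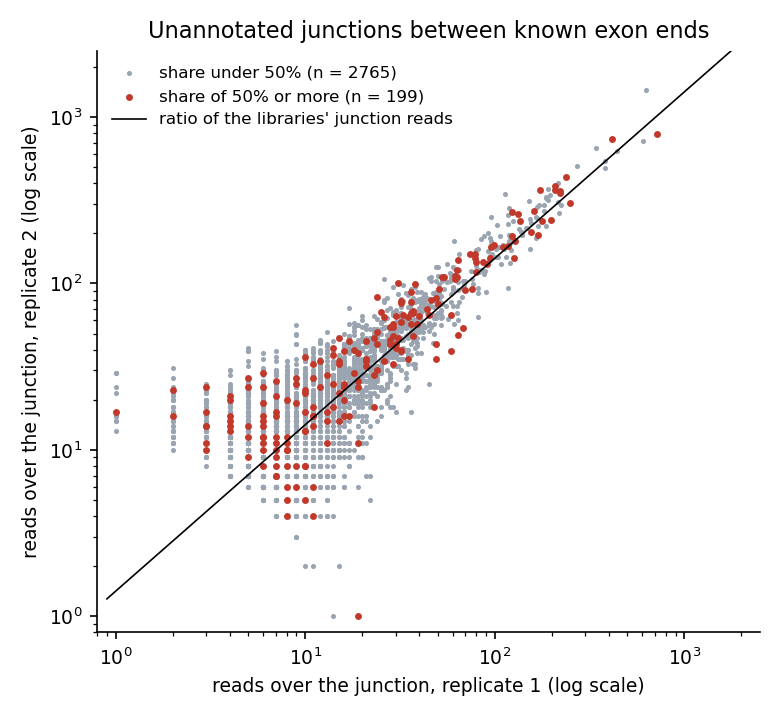
Each point is 1 of the 2964 selected junctions with reads in both replicates, placed by its reads in replicate 1 and in replicate 2 on log scales, with the line at the ratio of the libraries' total junction reads. Junctions with a share of at least 50% (n = 199) are red and lie over most of the read range up to 791 reads in replicate 2, among those of a lower share (n = 2765).

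The junction with the most reads skipped the second exon of Tmem14c (mm9 chr13:41111768-41113074), a mitochondrial membrane protein needed for heme synthesis in red cell precursors. It had 630 and 1450 reads in replicates 1 and 2, and its share was 17.2% and 21.6%. Annotated junctions had 3702 and 6341 reads at its donor and 2376 and 4157 at its acceptor. Its share over both libraries was 20.1%, with an exact 95% Clopper-Pearson interval of 19.3% to 20.8%. Such intervals cover counting error only, and the shares of the replicates lay outside this one on either side. The skipped exon has 59 bases and is not wholly coding.

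In Serpinh1, which encodes the collagen chaperone HSP47, the skip of the second exon was the main form. The junction (mm9 chr7:106497975-106501562) had 717 and 791 reads, against 13 and 20 annotated reads at its donor and 38 and 54 at its acceptor. Its share was 96.6% in replicate 1 and 95.5% in replicate 2. The median annotated junction of the gene had 1124.5 reads over both replicates, fewer than the 1508 over this one. Few of the gene's spliced reads in this tissue held the skipped exon.

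The skip of the 33-base exon of Snx22, a sorting nexin, was about as frequent as the rest of the gene's splicing. It had 417 and 735 reads, a share of 60.9% and 60.8%, and 1152 reads against a gene median of 1080. Mrpl30, a mitochondrial ribosomal protein, had 341 and 649 reads over a skip of its second exon, with a share of 40.8% and 44.4%. GENCODE M21 lists that Mrpl30 junction in a protein-coding transcript, while it does not list those of Tmem14c and Snx22. Proc, the anticoagulant protein C, had 273 and 508 reads over a junction that spans no whole exon, with a share of 40.6% and 42.5%. Its acceptor was rarely used otherwise, with 3 and 5 annotated reads. Sp2, a zinc finger transcription factor, had 239 and 435 reads with a share of 91.0% and 90.3%. Its ends are known from different transcripts, and its 674 reads exceeded those of each annotated junction of the gene.

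Other junctions among the 10 with the most reads were a small part of the reads at their splice sites, mostly in very abundant RNAs. Gm20390 was lower, at 68.3 and 70.5 TPM. The junction of Apoa2, an apolipoprotein of high-density lipoprotein, had 380 and 543 reads and a share of 1.11% and 1.01%. The junction of Atpif1, which encodes the inhibitor of the mitochondrial ATP synthase, had 381 and 496 reads and a share of 1.84% and 1.78%. The Gas5 exon printed above was skipped by 607 and 718 reads, a share of 9.06% and 9.72%. A junction in Gm20390 had 442 and 621 reads, a share of 9.73% and 9.77%. That junction is 1 of 2 whose ends also belong to exons of different genes, the other being in Tmsb15l, so it joins exons of neighbouring genes that a longer annotated gene covers. The 10 junctions together held 7.32% of the reads on the selected junctions.

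**Figure D2:**
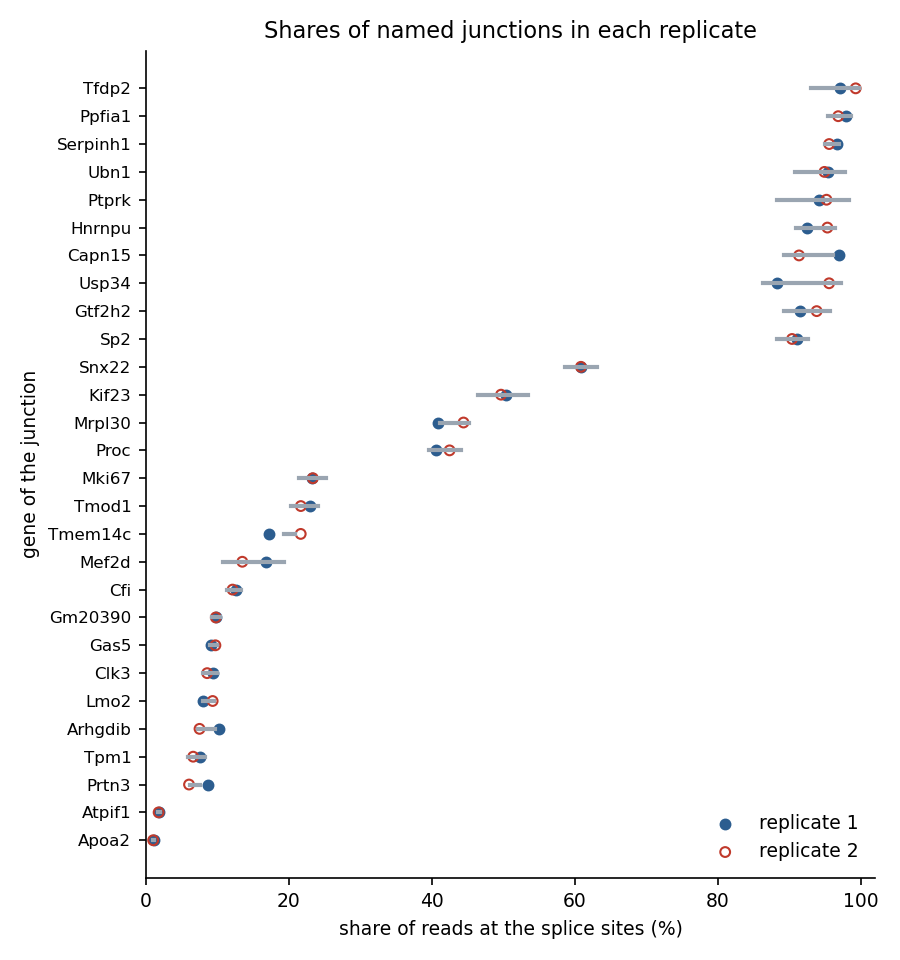
Share of reads at the splice sites (in percent) of 28 named junctions, with filled points for replicate 1, open points for replicate 2 and grey lines for the exact 95% interval of the replicates together. Shares run from 1.05% in Apoa2 to 98.5% in Tfdp2, and the replicates of a junction lie close to each other compared with this range.

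Among junctions with at least 50 reads and annotated reads at both splice sites, 10 had a share of 92.9% or more. Besides Serpinh1 they included those in Tfdp2, a partner of E2F transcription factors (98.5%), Ppfia1, a liprin of cell contacts (97.2%), Ubn1, a histone chaperone subunit (95.1%), and Ptprk, a receptor tyrosine phosphatase (94.8%). Others were those in Hnrnpu, a nuclear RNA-binding protein (94.2%), Capn15, a calpain (93.2%), Usp34, a deubiquitinating enzyme (93.1%), and Gtf2h2, a subunit of the transcription and repair factor TFIIH (92.9%). A high share says that these splice sites were joined this way, and not how often the gene used the sites. Hnrnpu shows the difference, with 123 and 192 reads over its junction and a gene median of 7201. Ppfia1 is the opposite case, with 162 and 272 reads over the junction and a gene median of 304.

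To set these cases apart, shares were read beside the gene's own level. Of the 199 junctions with a share of at least 50%, 153 also had at least 50% of the reads of the gene's median annotated junction, and 9 had under 10% of them. In total 132 junctions had more reads than the gene's median annotated junction, and 18 had more than each annotated junction of the gene. These 18 include Sp2, with 674 reads, and Erc1, with 64 and 49 reads in replicates 1 and 2. At Ip6k2, an inositol phosphate kinase, the skip of the 69-base exon had 221 and 361 reads, against 39 and 50 annotated reads at its donor and 25 and 25 at its acceptor, a share of 89.3%. App, the amyloid precursor protein, had 198 and 239 reads over a skip of a 57-base exon, a share of 53.0%. Erc1, Ip6k2 and App were chosen after their values were seen, as were Ptbp2 and the genes of short exons below.

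Exon length went along with the share, but gene level was not held fixed. The median share was also 33.8% in genes with 10 to 100 reads and 1.24% in those with 1000 or more. How far gene level sets the difference by length was not tested. The 39 junctions that skipped an exon of 27 bases or fewer had a median share of 47.1%, and 30 of them, or 76.9%, reached 10%. These include junctions without annotated reads at a splice site. For Clasp2 and Erc1 neither site had any, which sets the share at 100% by construction. For Asap1 and Itih3 the donor had none, which lowers the mean that enters the share. How far such sites set the difference by length was not tested. Those that skipped exons over 60 and up to 120 bases numbered 1060, with a median share of 3.79%, and 24.2% of them reached 10%. The median was 5.52% for exons over 27 and up to 60 bases, 3.82% for those over 120 and up to 200 bases, and 5.26% for longer exons. Exons of 27 bases or fewer were 1.56% of the wholly coding exons skipped by selected junctions and 0.860% of the other internal coding exons of the same genes. How the aligner placed reads over such short exons is not given in the sources used here.

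Short exons of this kind, often called microexons, are best known from neurons, where many are included that other tissues skip. In this liver the skip of a 24-base exon of Clasp2, a microtubule-binding protein, had 51 and 92 reads and no annotated read at either splice site. The same held for the 12-base exon of Erc1, a scaffold of secretion sites, with 64 and 49 reads. The 18-base exon of Ptprk printed above was skipped by 32 and 59 reads, against 2 and 3 annotated reads at each of its sites. Csnk1g3, a casein kinase, had 177 and 237 reads over the skip of a 24-base exon, against 22 and 41 annotated reads at its donor and 39 and 49 at its acceptor, a share of 84.6%. Asap1, which acts on Arf GTPases, had 221 and 347 reads over the skip of a 9-base exon, against no annotated read at its donor and 235 and 296 at its acceptor. Its share, which averages the 0 with the reads at the acceptor, was 68.1%. Mia2 had 121 and 190 reads over the skip of a 27-base exon, a share of 46.5%, so that its exon was included about as often as skipped. The shortest exon with at least 50 skipping reads has 3 bases and lies in Itih3, a plasma protein that binds hyaluronan. That junction had 59 and 65 reads, against no annotated read at its donor and 7 and 18 at its acceptor. Its averaged share was 90.8%, although the gene's median annotated junction had 6356 reads. The longest lies in Brca1, a DNA repair gene, with 3315 bases: 28 and 27 reads skipped it, a share of 27.5% and 13.6%.

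**Figure D3:**
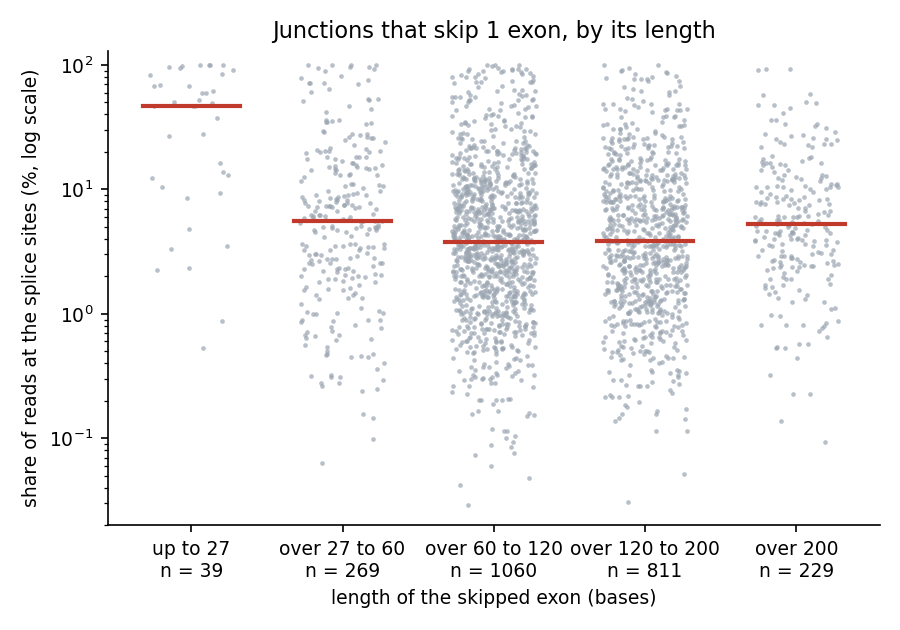
Share of reads at the splice sites (in percent, log scale) of each junction that skips 1 exon, by the length of that exon in bases, with a red line at the median of each length class. The median of the 39 junctions over exons of 27 bases or fewer is 47.1%, and those of the longer classes lie between 3.79% and 5.52%. Gene level is not held fixed between the classes, and junctions without annotated reads at a splice site are included.

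Most of the skipped coding exons did not keep the reading frame. Of 1859 junctions that skipped 1 wholly coding exon matched in GENCODE M21, 663 skipped a length that is a multiple of 3, which is 35.7% (exact 95% interval 33.5% to 37.9%). Annotated junctions at the same limit that skip 1 coding exon of another transcript gave 65.8% (63.8% to 67.8%, n = 2148). These were taken from all genes, and not only from genes with a selected junction. The other internal coding exons of the genes with a selected junction gave 39.2% (38.5% to 39.8%, n = 21051). At the limit of 0.01 the unannotated skips lay below both, with intervals that do not overlap. At a significance limit of 0.001 they gave 40.2%, above the 39.2% of the other exons at the limit of 0.01, so the order against the exons of the same genes turned with the limit. Exon length was not used to choose the junctions, but exons of 1 gene are not independent, and the intervals cover counting alone.

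The percentage differed with the share. Multiples of 3 made up 40.6% of the skipped exons at shares under 1% (n = 308), 31.3% at 1 to 2% (n = 284), 31.0% at 2 to 5% (n = 529) and 30.5% at 5 to 10% (n = 351). They made up 40.2% at 10 to 25% (n = 251), 49.4% at 25 to 50% (n = 85) and 68.6% at 50% or more (n = 51, interval 54.1% to 80.9%). Among annotated skips it was 37.0% at 1 to 2% (n = 92) and 82.2% at 50% or more (n = 961). Skips of both kinds kept the frame most often at shares of 50% or more, and the annotated ones were higher in each class of share. The intervals of the 2 kinds overlapped in each class under 5% and at 50% or more. Exon length was not held fixed between the classes. Of skipped coding exons of 27 bases or fewer, 72.4% were multiples of 3 (n = 29). For other internal coding exons of that length in the same genes it was 57.5%. Of the frequent ones printed above, the exons of Snx22, Ptprk, Erc1 and Ip6k2 are multiples of 3 and that of Ptbp2 is not.

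**Figure D4:**
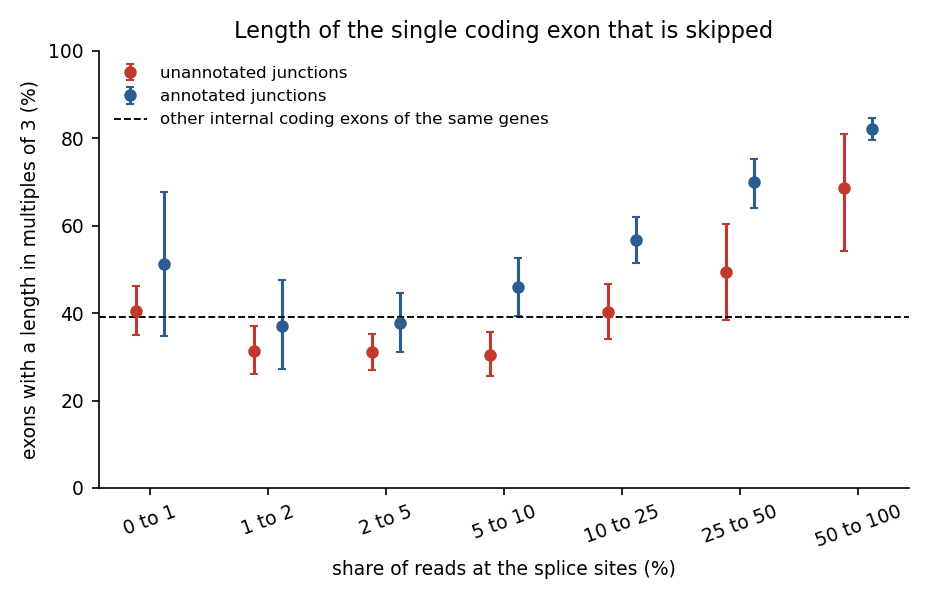
Percent of skipped single coding exons whose length is a multiple of 3, by the share of reads at the splice sites (in percent), for unannotated junctions (red) and annotated junctions that skip an exon (blue), with exact 95% intervals, and a dashed line at 39.2% for the other internal coding exons of the same genes. Unannotated junctions lie between 30.5% and 40.6% below a share of 25% and at 68.6% from 50% upward. Annotated junctions are from all genes, and the dashed line is from genes with a selected junction.

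The reading frame was then followed through the transcript for 2093 junctions that skipped coding exons of a complete coding sequence. Of the 1318 that shifted the frame, 1262 met a stop codon before the usual one, and in 1002 this stop lay more than 50 bases before the last exon junction, the position that marks an mRNA for nonsense-mediated decay. Of the 775 that kept the frame, 2 met an early stop, in Cript and Napg. An early stop was met by 54.1% of the junctions with a share under 1%, 64.7% at 1 to 10%, 56.1% at 10 to 50% and by 18 of 60 junctions at 50% or more (n = 362, 1304 and 367 in the other classes). In Ptbp2, the neuronal relative of the splicing regulator Ptbp1, the skip of a 34-base exon had 91 and 130 reads and a share of 78.6%. The shifted frame of Ptbp2 met a stop 8 codons after the junction. In mouse cells outside neurons, skipping of this exon is known to keep Ptbp2 protein low. GENCODE M21 lists this junction in a transcript marked for nonsense-mediated decay.

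A later annotation held part of the junctions. Through transcripts whose introns and inner exons kept their lengths, 2720 of the 2965 junctions could be placed in GENCODE M21, and 552 of these, or 20.3%, were introns there. Of junctions of the same kind above the significance limit, 3.76% of 24756 placed ones were. Those 26121 junctions above the limit had a median of 2 reads. M21 held 8.92% of the placed junctions at shares under 1%, 25.9% at 10 to 25% and 37.0% at 50% or more. Protein-coding transcripts of M21 held 312 of the junctions, transcripts marked for nonsense-mediated decay held 156, and processed transcripts without a coding sequence held 97, with some junctions in several types. The percentage of multiples of 3 was 35.0% among coding skips that M21 lists (n = 366) and 35.8% among those it does not (n = 1493). The deposited TPM table had entries for transcripts that hold 47 of the junctions, and in 21 of these cases the transcripts summed to at least 1 TPM in both libraries. Across the 47 junctions, the read share and the transcripts' share of TPM went together only weakly, with a Spearman rank correlation of 0.132.

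**Figure D5:**
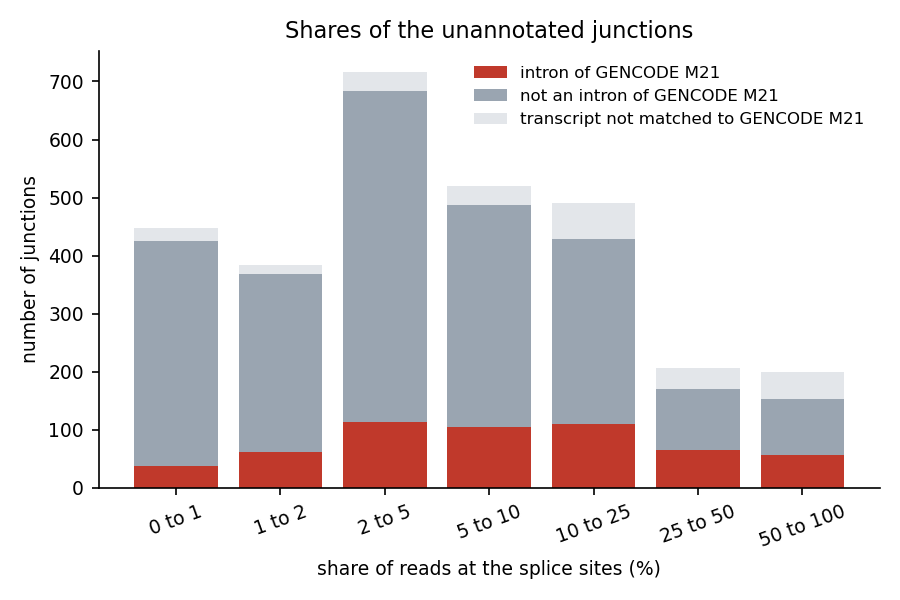
Number of selected junctions by the share of reads at the splice sites (in percent), split into those that are introns of GENCODE M21, those that are not, and those whose transcript was not matched. Introns of M21 are 38 of 426 placed junctions at shares under 1% and 57 of 154 at 50% or more.

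Second exons were a larger part of the skipped exons than of the pooled inner exons of the transcripts. Among the 2408 junctions that left out 1 exon, 532, or 22.1%, left out the second exon of the transcript. Pooled over the same transcripts, second exons were 9.19% of the inner exons. These percentages are weighted differently, since each junction counts once while long transcripts add most of the pooled exons. A transcript of 3 exons, as for Atpif1, has no other inner exon to skip. Whether second exons are skipped more often than others was not tested. Wholly coding exons were 49.8% of the second exons skipped and 86.8% of the later ones. Median shares were 4.66% for second exons and 4.08% for later ones. The introns on either side of a skipped exon were longer than others, with medians of 1648 bases before and 1574.5 bases after it, against 1152 bases for the other introns of the same transcripts. These medians were not split by exon position, although many of the skipped exons were second exons, which follow first introns. The exons themselves were close to the rest in median size, with more short ones among them. Skipped coding exons had a median of 112 bases, against 118 bases for other internal coding exons of the same genes. Exons under 60 bases were 12.4% of the skipped ones and 8.29% of the others. The last bases AG, which pair with the U1 RNA of the spliceosome, ended 53.8% of the skipped exons and 56.5% of the others. Among exons skipped with a share of at least 10% it was 58.8%, so the order turned with the share.

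Genes with a selected junction were the more highly expressed ones. Of the 13233 genes with an annotated junction at the limit, 16.5% held at least 1 selected junction. This was 5.71% of genes whose median annotated junction had 10 to 100 reads, 20.2% of those with 100 to 1000 reads and 31.0% of those with 1000 reads or more. The median level was 17.0 TPM for genes with a selected junction and 4.96 TPM for those without. The gene groups below are read beside these percentages, and how far their expression sets their counts was not tested.

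Red cell genes had the highest percentage of the 6 gene groups, with mostly small shares. Of 59 measured genes on the list, 34 held at least 1, or 57.6%, with 76 junctions in all, a median share of 0.552% and 4 junctions that reached 10%. The list's median annotated junction had 3898.5 reads per gene, against 196 over all genes. The 2 with the most reads were in Lmo2 and Tmod1. In Lmo2, an adaptor of the transcription factor complex of early blood cells, the junction had 187 and 328 reads and a share of 7.91% and 9.33%. In Tmod1, which caps the actin filaments of the red cell membrane, the skip of the 157-base exon printed above had 167 and 248 reads and a share of 22.9% and 21.7%. The frame shift in Tmod1 met a stop 17 codons after the junction. Kel, a blood group protein, had 7 selected junctions with shares from 0.324% to 1.71%.

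Hepatocyte genes also held mostly rare skips. Of 68 measured genes 27 held a selected junction, or 39.7%, with 35 junctions and a median share of 0.379%. Besides Apoa2, the most read was in Cfi, the complement factor I protease, where the skip of the 21-base exon printed above had 224 and 294 reads and a share of 12.5% and 12.1%. That exon keeps the frame and was included by most reads, with 1439 and 2030 annotated reads at its donor.

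Genes of splicing factors and regulators held 63 selected junctions in 41 of 100 measured genes, with a median share of 2.69%, and 17 of these junctions reached 10%. After Hnrnpu the most read was in Clk3, a kinase that phosphorylates SR proteins. Its 97-base exon was skipped by 119 and 178 reads, a share of 9.43% and 8.56%, and the frame shift met a stop 29 codons after the junction. GENCODE M21 lists this Clk3 junction in a transcript marked for nonsense-mediated decay. Of the 33 single coding skips on the list, 19 were multiples of 3, against 663 of 1859 over all.

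Cell cycle genes held 24 selected junctions in 16 of 42 measured genes, or 38.1%, with a median share of 1.02%. In Mki67, the proliferation marker Ki-67, the skip of a 960-base exon had 182 and 274 reads and a share of 23.2% and 23.3%. In Kif23, a kinesin of cell division, the skip of a 312-base exon had 119 and 285 reads and a share of 50.3% and 49.7%. Both lengths are multiples of 3, and the shares of each gene differed by under 1 percentage point between the replicates.

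Blood-forming and immune genes held 11 selected junctions in 7 of 47 measured genes, or 14.9%, with a median share of 3.26%. In Prtn3, proteinase 3 of neutrophil granules, the skip of the 166-base second exon had 139 and 204 reads and a share of 8.63% and 6.03%. In Arhgdib, an inhibitor of small GTPase signalling in blood cells, the junction had 70 and 104 reads, with 0 and 3 annotated reads at its donor and 1221 and 2564 at its acceptor, so the averaged share of 8.41% stands between very different sites. Skeletal muscle genes held 3 selected junctions in 3 of 20 measured genes, or 15.0%. The junction in Tpm1, a tropomyosin with many splice forms, had 63 and 73 reads, and the skip of the 138-base exon of Mef2d printed above, in a transcription factor, had 18 and 25. The third, in the giant muscle protein gene Neb, had 19 reads in replicate 1 and 1 in replicate 2, and the higher reads of Myh3 lay in the same library.

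Some genes held many selected junctions. A single one was found in 1688 genes, 347 genes held 2, 101 held 3 and 58 held 4 or more. The highest number was 9, in ENSMUSG00000091793, a gene without a symbol in the table used, with shares from 0.0932% to 61.5%. Gas5, Pigq and Slc43a1 held 8 each, and these genes were chosen for their counts, as was Kel. In Gas5 the shares ran from 0.0981% to 9.41%, and several of the junctions shared a donor with another. From the donor of the most read Gas5 junction, 607 and 718 reads went to the nearer acceptor and 186 and 222 to the farther. Pigq, which acts in the synthesis of membrane anchors, had shares from 0.226% to 5.86%, and Slc43a1, an amino acid transporter, from 0.204% to 2.21%. Of the 8 coding skips in Pigq, 2 kept the frame.

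In percentage points the replicates gave mostly similar shares. Over the 728 junctions with at least 50 reads, the median difference between the replicates was 1.33 percentage points. Such a difference is large beside a small share, and the median share of all selected junctions was 4.59%. After scaling by the libraries' total junction reads, 485 junctions (16.4%) exceeded their replicate 1 value by at least 2-fold in replicate 2, and 172 (5.80%) were at least 2-fold lower there. Over all junctions at the limit these percentages were 6.08% and 3.27%. The selected junctions have fewer reads, however: among those with 11 to 49 reads, 26.8% were at least 2-fold apart in either direction, against 25.8% of annotated junctions with as many reads. The median ratio of replicate 2 to replicate 1 was 1.19 for the selected junctions and 1.16 for annotated ones. An example is Ttr, the gene of the thyroid hormone carrier transthyretin, whose junction had 344 reads in replicate 2 and 113 in replicate 1.

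Near the significance limit the junctions had few reads. The 270 just inside it, at 0.009, had 11 to 27 reads, and the 311 just outside it, at 0.011, had 10 to 23. The most read of those inside were in Pdhb, a subunit of pyruvate dehydrogenase, with 5 and 22 reads, in Rbm25, a splicing regulator, with 1 and 24, and in Mcoln1, a lysosomal channel, with 2 and 22. Those outside were in Ctnnb1, the gene of beta-catenin, with 4 and 19 reads, in Paip2, a regulator of translation, with 9 and 14, and in Syngr2, a vesicle protein, with 7 and 14. At these levels the junctions on either side of the limit overlapped in reads.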

How the data were processed

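The deposited counts are raw reads per mm9 junction, given as R1 and R2, read here as replicates 1 and 2, and as their total. The significance score was deposited with each junction, and its meaning as a measure of irreproducibility was read from its range. The TPM values were estimated by the authors on mm10 with GENCODE M4, per the file headers and the notes deposited with them. For the aligner, the read filters and the flag C, no source used here gives a description. The 174152 junctions marked annotated were each an intron of the deposited ENSEMBL 65 exon table, and 0 of the 850537 others were.

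Junctions were matched to exon ends of the same strand, and GENCODE M21 exons were matched by transcript identifier and by the lengths of introns and inner exons, so that no coordinate was converted. Symbols were matched for 2161 of the 2194 genes. At 158 junctions a splice site had no annotated reads: this 0 was averaged with the other site, and the 14 with none at both sites have a share of 100% by construction. No model was fitted and no test was run, since reads chose the junctions and there is 1 group. Scripts ran in Python 3.11.15 with scipy 1.17.1 and were tested on simulated transcripts. The junctions, the 6 gene lists and the named genes were chosen with earlier results of these data known. The named genes were the 10 junctions with the most reads, the 10 with the highest share among those with at least 50 reads and reads at both sites, the 2 most read of each list, the 3 longest skips with at least 20 reads, the longest and shortest skipped exon, and 3 junctions on each side of the limit. A few genes and exons are not reported here. Reads of near-identical gene copies could be split by the authors' alignment, which was not tested.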

Additional observations from a re-analysis of the deposited data

How the results depend on the processing

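The number of selected junctions, 2965, rested on the significance limit: a limit of 0.001 left 1077 and a limit of 0.1 gave 6437. A minimum of 10 reads changed none of the results it was applied to, since the lowest junction had 11. The median share was 5.19% against the gene's median annotated junction and 2.37% against its highest one, and 4.44% to 4.55% with either replicate left out. With either replicate left out, 887 to 889 junctions had a share of at least 10%, against 896. At a limit of 0.001 the percent of single coding skips that are multiples of 3 was 40.2%, against 35.7%, and so above the 39.2% of the other coding exons of the genes at 0.01. Counting each skipped exon once and scaling by the median ratio of all junctions were chosen after seeing the data and gave 35.5% and 585 junctions at least 2-fold apart, against 657. No paired analysis was possible because there is 1 group. Depth limits what is seen: no skip with under 11 reads was selected, and skips with up to 23 reads lay just outside the limit. The absence of a skip here does not show that the exon is always included.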
